A study of Cervus nippon with 4 samples.

Results

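The genes described here had a steady level in the testis of Sika Deer at 3 and 5 years and a lower level at 10 years. They were chosen by their deposited FPKM values, which count sequenced fragments relative to the length of the gene and to the depth of the library. A gene was kept when it had at least 5 FPKM in both Tst_2 and Tst_3, when these values lay within 1.5-fold of each other, and when Tst_4 was at most 0.5 times each of them. Of 629520 gene identifiers in the series, 380 met these conditions, and the first 200 by the smaller of Tst_2 and Tst_3 are described.

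Each library was made from the pooled testis RNA of 3 Shuangyang Sika Deer of 1 age. Tst_1 was the juvenile group at 1 year, Tst_2 the adolescence group at 3 years, Tst_3 the adult group at 5 years and Tst_4 the aged group at 10 years. No treatment is given for any of them, and the labels do not give the season at which the testes were taken. There was 1 library per age, so no value has an error, no test was run, and age cannot be told apart from differences between animals or between libraries.

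The testis holds germ cells at successive stages, from spermatogonia through spermatocytes to spermatids. They develop inside the seminiferous tubules, supported by Sertoli cells, while Leydig cells between the tubules make testosterone. Spermatocytes and spermatids appear in number only with puberty, so the cell makeup of a juvenile testis differs from that of a mature one, and in deer the size of the testis and sperm production also follow the breeding season. In RNA of the whole tissue, fewer cells of a type and less RNA per cell cannot be told apart.

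The files pair no identifier with a gene name, so the 200 genes are given by identifier, their functions are not known here, and no testis marker could be checked. The libraries listed between 317205 genes, in Tst_4, and 422330, in Tst_1, down to 0.01 FPKM. A gene missing from a list was taken as 0 and is called not listed. The number of reads behind an FPKM value is unknown.

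The 200 genes were of moderate level. Their FPKM in Tst_2 ran from 7.65 to 157.51 with a median of 14.56. In Tst_3 it ran from 7.69 to 159.1 with a median of 14.15. In Tst_4 it ran from 0 to 67.01 with a median of 4.27. The juvenile library, which the choice of genes did not use, had the widest range, from 0 to 707.95 FPKM with a median of 2.06.

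Together the genes held a small part of the RNA. Their summed FPKM was 4010 in Tst_2 and 3954 in Tst_3, which was 0.467% and 0.482% of all FPKM in these libraries. The sum was 1211 in Tst_4, or 0.145%. In Tst_1 the sum was 4193, or 0.482%, close to the sums at 3 and 5 years although most of the genes were low in that library. The juvenile values were unequal, as 19 of the 200 genes exceeded 60 FPKM at 1 year and 90 lay under 1 FPKM. At 3 years 7 genes exceeded 60 FPKM, at 5 years 6 and at 10 years 1. The choice of genes kept the values at 3 and 5 years at 5 FPKM or more and limited those at 10 years. These counts therefore do not compare the ages, and they were not taken over other genes. Without the first 3 genes of the ranking the sum was 3205 at 1 year, 3583 at 3 years, 3540 at 5 years and 1056 at 10 years.

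The fall to Tst_4 is fixed by the choice of genes and is given as a description. The median ratio of Tst_4 to the smaller of Tst_2 and Tst_3 was 0.373, with quartiles of 0.234 and 0.455. Most genes lay near the limit, as 88 had a ratio of at least 0.4 and 39 a ratio between 0.3 and 0.4. Another 32 had a ratio between 0.2 and 0.3, 14 between 0.1 and 0.2, and 27 less than 0.1. Of the last group, 13 genes were not listed in Tst_4 at all.

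The limits cut through a continuous range of values. At the lower end of the ranking, gene c583619_g1 had 7.65 FPKM at 3 years, 9.35 at 5 years and 2.99 at 10 years and was the last gene taken. Gene c648405_g2 had the same 7.65 FPKM in Tst_2, with 8.73 at 5 years and 1.33 at 10 years, and was left out by the order of identifiers alone. At the limit on Tst_4, gene c669525_g1 had 6.25 FPKM in Tst_4 against 12.5 in Tst_3, a ratio of 0.5. Gene c678598_g4, with 23.76 FPKM in Tst_4 against 47.43 in Tst_3, missed it at a ratio of 0.501. At the limit on Tst_2 and Tst_3, gene c686054_g1 was kept with 52.23 and 35.74 FPKM, 1.46-fold apart, and gene c656701_g3 was left out with 15.7 and 23.8 FPKM, 1.52-fold apart.

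The genes were read against a comparison set of all 16423 genes with at least 5 FPKM in Tst_2 and Tst_3 and within 1.5-fold there, whatever their level in Tst_4. Of this set, 2.31% met the condition on Tst_4, which is the share the choice itself draws from and supports nothing. In the other direction, 59 genes, or 0.359%, had at least 2 times the larger of Tst_2 and Tst_3 in Tst_4. The median log2 ratio of Tst_4 to the mean of Tst_2 and Tst_3, with 0.1 FPKM added, was -0.08 over the comparison set and -1.52 over the 200 genes. The genes lower in Tst_4 thus made up 86.6% of those that moved 2-fold in either direction on the deposited scale. It was 70.5% after scaling by median-of-ratios factors, which shifted the median of the set to 0.11. The set asks for at least 5 FPKM in Tst_2 and Tst_3 and sets no minimum in Tst_4. Genes that rose from lower levels are left out, so the directions were not counted on equal terms.

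**Figure D1:**
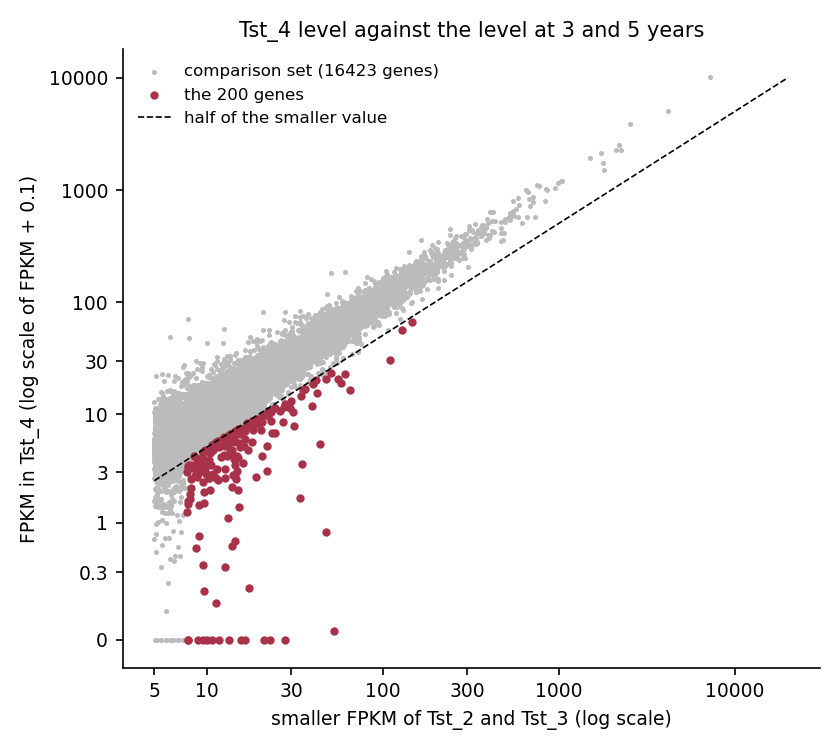
FPKM in Tst_4 on the vertical axis (log scale of FPKM + 0.1) against the smaller FPKM of Tst_2 and Tst_3 on the horizontal axis (log scale), 1 point per gene, for the 16423 genes of the comparison set in grey and the 200 genes in red. The 200 genes lie on or under the dashed line at 0.5 times the smaller value, most of them close to it, and 13 lie at 0.

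How often a gene fell depended on its level. Between 5 and 10 FPKM at 3 and 5 years, 3.50% of the 6716 genes of the comparison set met the condition on Tst_4. Between 10 and 20 FPKM it was 2.15% of 4598 genes, and between 20 and 50 FPKM it was 1.09% of 3394 genes. From 50 FPKM on it was 0.525%, or 9 of 1715 genes. The share with at least 2 times the level in Tst_4 went down over the same levels, from 0.566% to 0.117%. Both directions were thus rarer among highly expressed genes.

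The juvenile library separated the 200 genes into unlike groups. The level in Tst_1 was compared with the mean of Tst_2 and Tst_3 after adding 0.1 FPKM, and a log2 ratio beyond 1 in size was called higher or lower. The choice of genes also used Tst_2 and Tst_3, so the ratio of Tst_1 to their mean is not independent of that choice. Of the 200 genes, 130 were lower in Tst_1, or 65.0%, against 47.1% of the comparison set. Another 32 were higher in Tst_1, or 16.0%, against 13.5%. The remaining 38 genes lay within 2-fold. The excess of lower genes came from those not listed in Tst_1. When only genes listed in all 4 libraries were ranked, 46.0% of the 200 genes taken were lower in Tst_1, against 42.3% of the set so made. In the same list 26.0% were higher, against 14.7%. Of the genes so taken, 130 were among the 200 described here. The rest came from lower in the ranking, so the lists differ in level as well as in listing.

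The share not listed in Tst_1 differed most from the comparison set. It was 65 of the 200 genes, or 32.5%, against 8.32% of the set. Since the 200 genes all had at least 7.65 FPKM at 3 and 5 years, the shares were also taken over the 12040 genes of the set above that level. There 7.67% were not listed in Tst_1, 51.4% were lower in Tst_1, the unlisted ones included, and 10.9% were higher. Genes that lay within 2-fold made up 19.0% of the 200 genes, 39.4% of the whole set and 37.7% of the set above 7.65 FPKM. With 1 library per age these are differences in shares without an error.

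**Figure D2:**
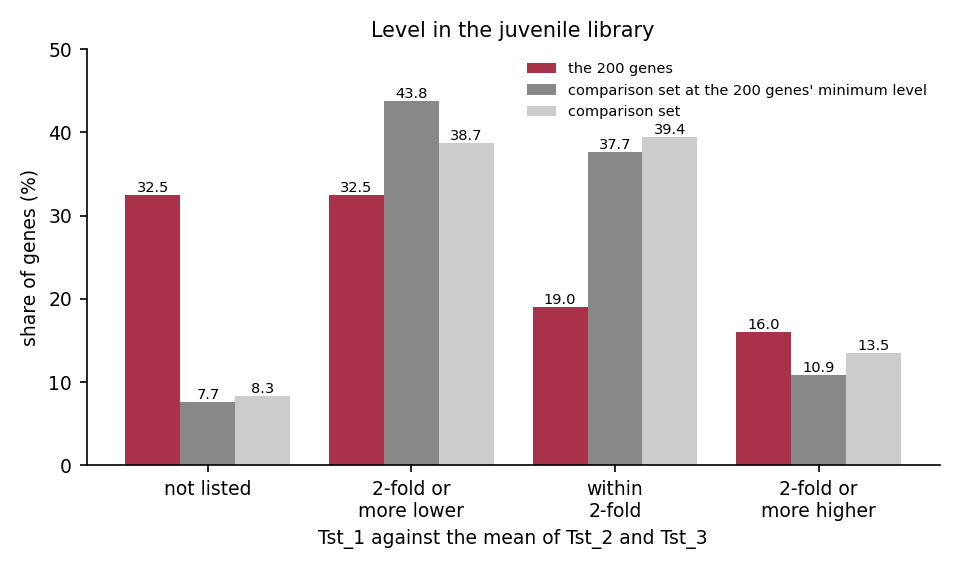
Share of genes (%) by their level in Tst_1 against the mean of Tst_2 and Tst_3, for the 200 genes (red), for the comparison set from 7.65 FPKM on (dark grey) and for the whole comparison set (light grey); the group 2-fold or more lower holds listed genes only. Genes not listed in Tst_1 make up 32.5% of the 200 genes and 7.67% and 8.32% of the others.

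The 65 genes that were not listed in the juvenile library were, by the choice and this grouping, highest at 3 and 5 years. The median over them was 15.43 FPKM at 3 years, 14.78 at 5 years and 3.47 at 10 years. Their fall to Tst_4 was the deepest of the groups, with a median ratio of 0.283 to the smaller of Tst_2 and Tst_3 and 16 genes under a ratio of 0.1. In 8 of them Tst_4 was not listed either, so that they were listed at 3 and 5 years only. In the comparison set this held for 14 of the 1367 genes not listed in Tst_1. Any such gene meets the condition on Tst_4, so the count of 8 is not read as a result.

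The highest of these was c315220_g1, with no value listed in Tst_1, 141.82 FPKM at 3 years, 108.96 at 5 years and 30.89 at 10 years. In the aged library it was still the third highest of the 200 genes. Gene c649530_g1 was not listed in Tst_1 and had 66.76 FPKM at 3 years, 57.78 at 5 years and 19.09 at 10 years. Gene c639160_g2 had the same shape at a lower level, with 46.42 FPKM at 3 years, 39.18 at 5 years and 11.92 at 10 years.

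Other genes of this group had lower ratios at 10 years. Gene c656335_g6 was not listed in Tst_1 and had 69.71 FPKM at 3 years, 52.24 at 5 years and 0.02 at 10 years. Gene c660355_g2 had 52.14 FPKM at 3 years, 43.42 at 5 years and 5.39 at 10 years. Gene c1171958_g1 had 22.58 FPKM in Tst_2 and 32.07 in Tst_3 and was listed in neither Tst_1 nor Tst_4. The same held for c642261_g1, with 20.91 FPKM in Tst_2 and 24.52 in Tst_3, and for c1134980_g1, with 19.3 and 15.49 FPKM.

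Another 65 genes were listed in Tst_1 at a level at least 2-fold lower than at 3 and 5 years, which was 32.5% of the 200 genes and less than the 38.7% of the comparison set and the 43.8% of the set from 7.65 FPKM on. Their median FPKM was 1.78 at 1 year, 14.35 at 3 years, 16.37 at 5 years and 4.77 at 10 years. In 53 of the 65 the juvenile library was also below the aged one, and in 12 it was above. In the comparison set, Tst_1 was below Tst_4 in 6341 of the 6363 genes of this group. It was thus less frequent among the 65 genes, which were chosen for a low Tst_4.

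Gene c657103_g1 had 0.70 FPKM at 1 year, 72.34 at 3 years, 65.12 at 5 years and 16.68 at 10 years. Gene c648224_g2 had 0.49 FPKM at 1 year, 55.09 at 3 years, 63.14 at 5 years and 20.66 at 10 years. Both were far higher in the aged library than in the juvenile one. Gene c561704_g2 went lower, with 1.17 FPKM at 1 year, 50.14 at 3 years, 47.21 at 5 years and 0.80 at 10 years, so that Tst_1 and Tst_4 had like levels. Gene c673420_g2 had the highest juvenile value of the group, with 18.16 FPKM at 1 year, 54.79 at 3 years, 50.37 at 5 years and 23.44 at 10 years.

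The 38 genes within 2-fold between Tst_1 and the mean of Tst_2 and Tst_3 made up 19.0% of the 200. Their median FPKM was 17.61 at 1 year, 14.07 at 3 years, 12.33 at 5 years and 5.19 at 10 years. Their median ratio of Tst_4 to the smaller of Tst_2 and Tst_3 was 0.412, and 1 gene had a ratio under 0.1. It was near the 0.391 of the 65 listed genes lower in Tst_1 and the 0.396 of the 32 genes higher there. Gene c613094_g2 had 52.0 FPKM at 1 year, 70.11 at 3 years, 60.34 at 5 years and 22.92 at 10 years. Gene c649689_g8 had 25.48 FPKM at 1 year, 47.02 at 3 years, 48.08 at 5 years and 20.57 at 10 years, a juvenile value close to the aged one. Gene c681480_g4 stood at the upper border of this group with 280.01 FPKM at 1 year, 127.42 at 3 years, 159.1 at 5 years and 57.29 at 10 years, a log2 ratio of 0.97 for Tst_1.

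By the choice and this grouping, the 32 genes higher in Tst_1 went down from 1 year to the middle libraries and again to 10 years. Their median FPKM was 55.4 at 1 year, 13.5 at 3 years, 11.7 at 5 years and 4.58 at 10 years. Gene c497285_g1, the first of the ranking, had 707.95 FPKM at 1 year, 157.51 at 3 years, 145.68 at 5 years and 67.01 at 10 years. It had the highest value of the 200 genes in Tst_1, Tst_2 and Tst_4 and came after c681480_g4 in Tst_3.

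The steepest juvenile excess was in c682081_g1, with 255.61 FPKM at 1 year, 14.57 at 3 years, 13.74 at 5 years and 6.10 at 10 years, a log2 ratio of 4.16 for Tst_1. Gene c683916_g1 had 122.54 FPKM at 1 year, 9.80 at 3 years, 11.86 at 5 years and 2.87 at 10 years. Gene c598193_g1 had 212.7 FPKM at 1 year, 20.12 at 3 years, 22.2 at 5 years and 7.25 at 10 years. In these genes the larger step was between 1 and 3 years, and a smaller one followed between 5 and 10 years. They were named for their high ratio of Tst_1, so the large first step is partly fixed by that pick.

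Gene c527606_g1 was of the same kind, with 200.0 FPKM at 1 year, 21.8 at 3 years, 23.83 at 5 years and 5.17 at 10 years, as was c286302_g1, with 72.63, 7.72, 9.97 and 3.26 FPKM. Gene c685747_g3 differed in its end, with 87.77 FPKM at 1 year, 27.5 at 3 years, 34.96 at 5 years and none listed at 10 years. It had the highest level at 3 and 5 years among the 13 genes not listed in Tst_4. Of those 13, 2 were higher in Tst_1 and 8 were not listed there.

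**Figure D3:**
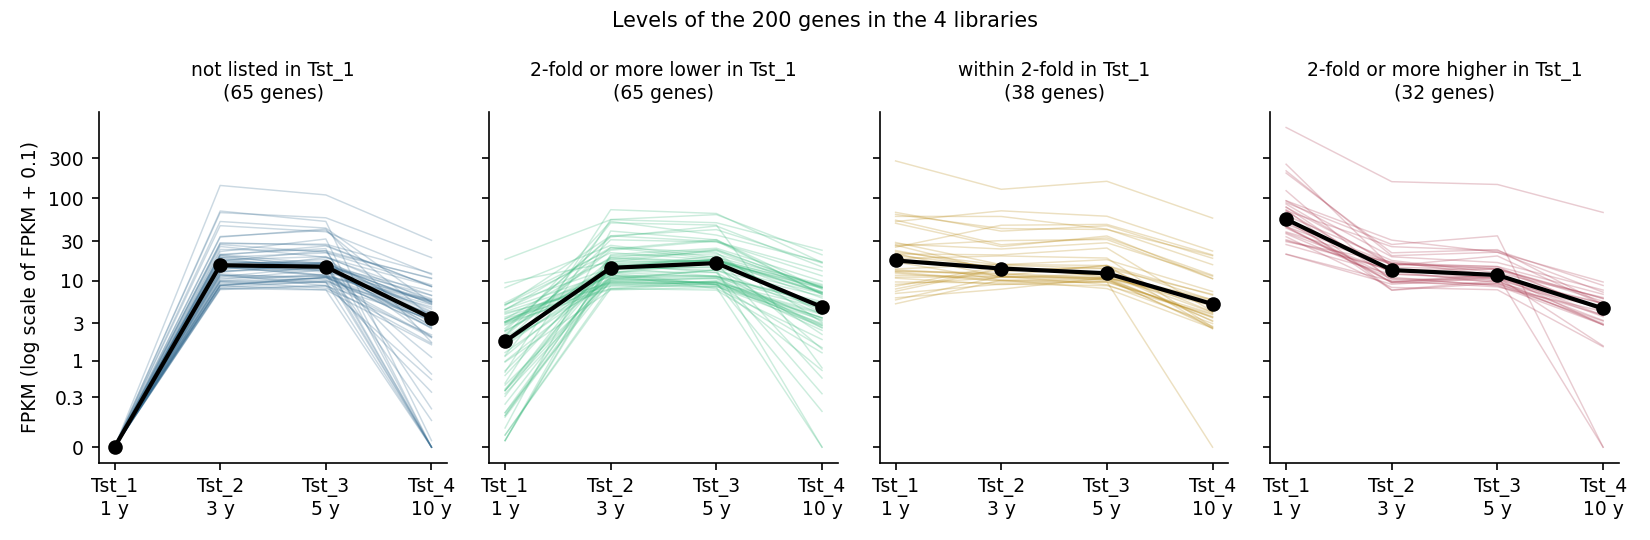
FPKM (log scale of FPKM + 0.1) of each of the 200 genes in Tst_1, Tst_2, Tst_3 and Tst_4 (1 thin line per gene) in 4 panels by the level in Tst_1, with the median of each panel in black. The 65 genes not listed and the 65 genes lower in Tst_1 peak in the middle libraries. The 32 genes higher in Tst_1 go down from a median of 55.4 to 4.58 FPKM. The choice of genes and the grouping fix both of these shapes. The median of the 38 genes within 2-fold goes from 17.61 to 14.07 and 12.33 and then to 5.19 FPKM.

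Over the 200 genes, Tst_1 was below Tst_4 in 110, above it in 82 and equal to it in 8, which were the genes listed in neither. In the comparison set Tst_1 was below Tst_4 in 64.2% of genes and above it in 35.7%, beside 55.0% and 41.0% of the 200 genes, which were chosen for a low Tst_4. In 52 of the 200 genes Tst_1 was above both Tst_2 and Tst_3, a count not taken over the comparison set and not read as a result. Within the steady pair, Tst_2 was the higher library in 54.0% of the 200 genes and in 53.7% of the comparison set; both were chosen for like values in these libraries, so nothing is read from these shares. The values of Tst_2 and Tst_3 lay within 1.1-fold in 71 of the 200 genes, which the choice for like values also shapes.

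The comparison set was also read the other way, by how many genes of each juvenile group met the condition on Tst_4. Of the 1367 genes not listed in Tst_1, 8.19% did so. Of the 6363 listed genes lower in Tst_1 it was 1.82%, and of the 6470 genes within 2-fold it was 1.11%. Among the 2223 genes higher in Tst_1, 80 met the condition, which is a larger share than in the 2 groups before. Over all levels together, genes within 2-fold in Tst_1 were thus the least often lower at 10 years, and the difference was seen on both sides of them. From 20 FPKM on, the listed genes lower in Tst_1 had a smaller share still. For listed genes Tst_2 and Tst_3 enter both the juvenile grouping and the condition on Tst_4, so these shares are not independent. They were not recomputed by juvenile group under other scalings.

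The opposite change was not spread in the same way. At least 2 times the level in Tst_4 was found in 2.05% of the genes not listed in Tst_1, 0.330% of the listed genes lower there, 0.155% of those within 2-fold and 0 of the 2223 genes higher there. Genes not listed in Tst_1 therefore moved more often in both directions, whereas those higher in Tst_1 moved down only. Over all genes of the comparison set that were higher in Tst_1, the median log2 ratio of Tst_4 to the mean of Tst_2 and Tst_3 was -0.32, against -0.12 within 2-fold and 0.04 among the listed genes lower in Tst_1.

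The order of the juvenile groups held at low and moderate levels. Between 5 and 10 FPKM the share lower in Tst_4 was 10.0% for genes not listed in Tst_1, 4.75% for those higher, 3.86% for listed genes lower and 1.39% within 2-fold. Between 10 and 20 FPKM it was 9.41%, 2.39%, 1.91% and 0.946% in the same order. Between 20 and 50 FPKM it was 4.55%, 1.88%, 0.672% and 0.817%, so that the last 2 groups changed places. From 50 FPKM on it was 2.42%, 0.787%, 0.268% and 0.581%, and each group held at most 3 such genes.

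**Figure D4:**
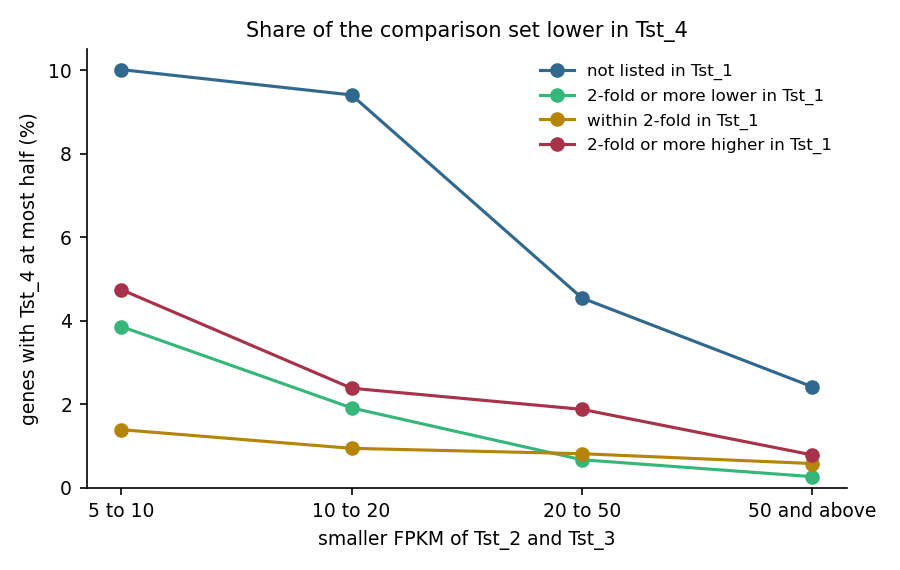
Share of the comparison set with Tst_4 at most 0.5 times Tst_2 and Tst_3 (%) against the smaller FPKM of Tst_2 and Tst_3 in 4 intervals, 1 line per group by the level in Tst_1. The line of genes not listed in Tst_1 is above the others in each interval, from 10.0% at 5 to 10 FPKM to 2.42% from 50 FPKM on.

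The identifiers have the form of a number after c and a number after g. It is the form used by the Trinity assembler, in which genes with the same c number come from 1 connected group of assembled sequences. Such a group is called a component here, and its genes can share sequence and reads, so they are not independent. The sources used here do not describe the assembly of these identifiers.

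The 200 genes came from 197 components. Of them, 94 were the sole gene of their component in the 4 lists, or 47.0%, against 22.0% of the comparison set and 20.5% of the set from 7.65 FPKM on. The share of sole genes was highest in the juvenile groups at both ends. It was 65.6% of the 32 genes higher in Tst_1 and 56.9% of the 65 not listed there, against 39.5% within 2-fold and 32.3% of the listed genes lower in Tst_1. In the comparison set the corresponding shares were 20.3%, 52.2%, 17.4% and 20.6%. Genes higher in Tst_1 were thus near the 22.0% of the whole set there, against 65.6% among the 200.

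Sole genes met the condition on Tst_4 more often than genes with others in their component, with 5.07% of 3606 against 1.54% of 12817. This held between 5 and 10 FPKM, with 6.70% against 2.40%, between 10 and 20 FPKM, with 4.64% against 1.47%, and between 20 and 50 FPKM, with 3.41% against 0.605%. From 50 FPKM on the shares were 0.639% and 0.499%, from 2 and 7 genes. Among sole genes higher in Tst_1 the share was 10.6%, against 1.81% for genes higher in Tst_1 that had others in their component. The gap was small for genes not listed in Tst_1, with 8.82% against 7.50%, and it was 3.20% against 1.47% for listed genes lower in Tst_1 and 2.66% against 0.786% within 2-fold. Among sole genes, those higher in Tst_1 thus passed those not listed there.

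Only 2 components held more than 1 of the 200 genes. In c649530 there were 3: c649530_g1, given above, c649530_g2, with 15.0 FPKM at 3 years, 16.48 at 5 years and 2.03 at 10 years, and c649530_g5, with 16.28 and 16.84 FPKM and none listed in Tst_4. None of the 3 was listed in Tst_1. A further gene of this component, c649530_g3, went another way, with 4.64 FPKM at 1 year, 2.30 at 3 years, 3.03 at 5 years and 2.02 at 10 years.

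In c632321 there were 2 such genes. Gene c632321_g3 had 0.07 FPKM at 1 year, 40.02 at 3 years, 31.3 at 5 years and 7.86 at 10 years. Gene c632321_g2 had 0.13, 11.66, 8.01 and 1.88 FPKM. The ratio of Tst_4 to the smaller middle value was 0.251 in the first and 0.235 in the second, so they fell by like amounts.

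**Figure D5:**
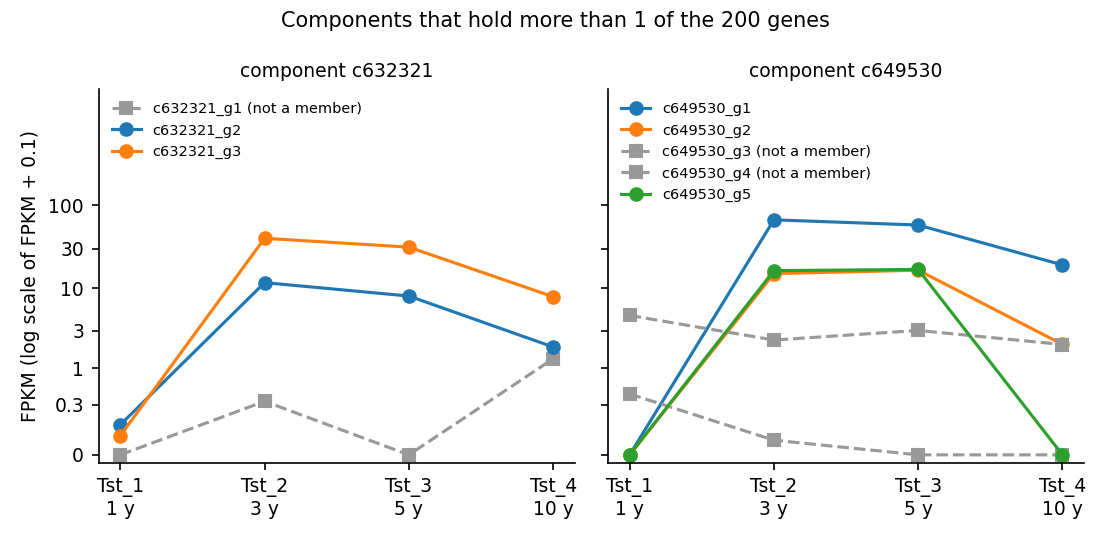
FPKM (log scale of FPKM + 0.1) in Tst_1, Tst_2, Tst_3 and Tst_4 of every gene of the 2 components that hold more than 1 of the 200 genes, with the 200 genes as coloured circles and their neighbours as grey squares. The 5 genes peak in Tst_2 and Tst_3, whereas c649530_g3 stays between 2.02 and 4.64 FPKM.

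The 197 components held 316 further genes, of which 133 were under 1 FPKM in every library. In the comparison set there were 36 of the 316. A gene that fell to 0.5 times from 7.65 FPKM or more would have been taken among the 200, so how many of the 36 fell is not read as a result, and the fall of the other further genes was not assessed singly. Of the 36, 25 had a log2 ratio under 0. Their median log2 ratio of Tst_4 to the mean of Tst_2 and Tst_3 was -0.16, in a range from -0.92 to 0.69, beside -0.08 over the whole comparison set.

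The fall was also taken over the sum of each component. Of the 106 genes with others in their component, 60 had a component sum in Tst_4 of at most 0.5 times the smaller of Tst_2 and Tst_3, and 46 did not. Each sum includes the gene that was chosen for its fall. In Tst_2 and Tst_3, 35 of the 106 genes held at least 0.9 of their component sum. The count of 60 is thus partly fixed by the choice, and it was not taken over the comparison set. The median ratio of the sums was 0.473, and the highest was 1.24, in component c681088. There c681088_g2, 1 of the 200 genes, had 9.04 FPKM at 3 years, 8.51 at 5 years and 2.77 at 10 years, while c681088_g4 was listed in Tst_4 alone with 4.04 FPKM, c681088_g5 in Tst_4 alone with 2.21 FPKM, and c681088_g3 went from 0.58 and 0.78 to 2.67 FPKM. This component was chosen after its values were seen. Among the 316 further genes there was none of at least 5 FPKM in Tst_4 with at least 2 times the level of Tst_2 and Tst_3. FPKM of different genes are relative to different lengths, so a sum of them gives no number of reads.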

How the data were processed

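Testis mRNA was measured in 4 libraries, 1 per age, each from the pooled RNA of 3 animals. The authors deposited 1 list of gene identifiers and FPKM values per library, computed from poly-A selected Illumina libraries. How reads were aligned and counted, and against which assembly, is not given in the sources used here, and the depth behind each FPKM is unknown. Ages were taken from the labels.

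The lists were joined on the identifier, missing genes were set to 0, and the conditions on Tst_2, Tst_3 and Tst_4 were applied to the deposited values. Log2 ratios used a pseudocount of 0.1 FPKM, which understates changes of low genes. With 1 library per age no test was run. The genes, groups and comparisons were chosen with earlier results of these data known. Individual genes were named by rank (the first 12), by the 5 lowest ratios of Tst_4, by the 5 highest and 5 lowest ratios of Tst_1, by shared components and by nearness to a limit. Alternatives covered scaling, the FPKM minimum, the window between Tst_2 and Tst_3, the limit on Tst_4, unlisted genes, the pseudocount and components. The selection step was tested on simulated data. Calculations used Python 3.11.15, numpy 2.4.6 and pandas 2.3.3, and figures matplotlib 3.10.9.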

Additional observations from a re-analysis of the deposited data

How the results depend on the processing

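No paired analysis was possible because there were no replicates at any age, and none could be left out. Of 38 values recomputed under the alternatives, 26 stayed within 1.5 times the reported count or within 0.1 of the reported log2 median, 12 moved and 0 changed sign. Some of these outcomes were fixed in advance. At a minimum of 1 FPKM the same 200 genes were taken, so only the number that met the conditions could move. The limit on Tst_4 also fixes the sign of the median log2 ratio of Tst_4. The number of genes that met the conditions was 380 as reported, 692 after scaling by a trimmed mean of ratios to Tst_1, 3736 at a minimum of 1 FPKM, 145 at a minimum of 10 FPKM and 170 under a stricter limit on Tst_4, 1 part in 3 of each of Tst_2 and Tst_3. It stayed between 254 and 478 under the others. The 32 genes higher in Tst_1 became 21 under median-of-ratios factors, 19 under the trimmed mean, 19 at a minimum of 10 FPKM, where 145 genes were left, and 52 among genes listed in all 4 libraries. The median log2 ratio of Tst_4 became -1.66 under median-of-ratios factors, -1.70 under the trimmed mean, -1.41 among genes listed in all 4 libraries and -1.38 with a pseudocount of 1. The FPKM minimum, the limit on Tst_4 and the omission of unlisted genes change which genes can be taken; for the scalings the cause was not tested.

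Of the 200 genes, 188 were taken again after scaling by the sum of FPKM, 129 under median-of-ratios factors and 123 under the trimmed mean. Under median-of-ratios factors 35.5% of the genes taken were not listed in Tst_1, against 8.001% of the comparison set formed under the same factors. In the same way 71.5% were lower in Tst_1, against 58.8% of that set, and 10.5% were higher, against 5.39%. Genes lower in Tst_4 outnumbered those higher under every scaling run, by 301 to 126 under median-of-ratios factors and by 692 to 221 under the trimmed mean. Each of these runs kept the minimum of 5 FPKM in Tst_2 and Tst_3, which leaves out genes that rose from lower levels. The unknown reads behind each FPKM limit every ratio that rests on a low value, and a gene not listed may have had reads too few to be given a value.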

Other observations

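Below the 200 genes, another 180 met the same conditions at between 5 and 7.65 FPKM in the smaller of Tst_2 and Tst_3. The juvenile groups had other shares among them: 26.1% were not listed in Tst_1, 28.3% were listed at a level at least 2-fold lower, 18.9% lay within 2-fold and 26.7% were at least 2-fold higher. The last share was 16.0% among the 200 genes, and the difference between them was not tested. In Tst_4, 15 of the 180 were not listed, and the median ratio of Tst_4 to the smaller of Tst_2 and Tst_3 was 0.349. Sole genes of a component made up 49.4%, near the 47.0% of the 200 genes. Over the whole comparison set, 28 genes, or 0.170%, were not listed in Tst_4. Any such gene meets the condition on Tst_4, so this share is no background for the genes that were chosen by it.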
